A study of Mus musculus with 4 samples.

Results

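The tubulin isotypes are the alternative alpha and beta chains from which microtubules are built. Of the 9 mouse genes listed for this family (Tuba1a, Tuba1b, Tuba1c, Tuba4a, Tubb2a, Tubb2b, Tubb3, Tubb5 and Tubb6), 7 have at least 1 probe set with a single gene symbol in the array annotation, 12 probe sets in all, out of 18194 genes so named on the array. Tuba1b and Tuba1c have only probe sets that the annotation also gives to a second symbol, and these are described apart. Where a gene has several probe sets, the one of highest mean over the arrays is its main probe set. The cells were of Comma D beta, a mouse mammary epithelial line, grown in medium that held 2% serum, 5 ug/ml of insulin and 10 ng/ml of EGF. They were left untreated or given doxycycline (dox) at 100 ng/ml for 1 day, and were sorted on the surface marker Sca1. There are 4 arrays, 1 for each combination of treatment and Sca1 fraction, and rows of 4 levels below give Sca1+ and then Sca1- cells without dox, followed by Sca1+ and then Sca1- cells with dox. All 4 groups are the same line, and what dox switches in these cells is not stated in the sources used here, although the title of the series names Bcl11b.

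One alpha and one beta chain form a dimer, and dimers polymerise into the hollow tube of the microtubule. The isotypes are much alike in their globular core and differ mostly in the acidic tail at the carboxyl end, where motors, associated proteins and modifying enzymes bind. Cells also adjust tubulin synthesis to demand, since excess free dimers lead to the decay of tubulin mRNAs that are being translated. Tubb5 is the beta chain of most dividing cells, Tubb2a and Tubb2b are class II beta chains abundant in brain, Tubb3 is the class III chain used widely as a marker of neurons, and Tubb6 is the class V chain, found in many tissues.

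Each group has 1 array, so no difference below has a replicate error or a test, and a difference of 2-fold or more (1 or more on the log2 scale) was used as a rule of size. Values are the authors' log2 expression levels. Their smallest value is 3.32, the log2 of 10, on every array, and between 44.8% and 48.0% of the 45101 probe sets lay at this floor. Background shares were taken over 12264 genes that reached the pooled median of 3.63 on at least 1 array, and the main probe sets of all 7 tubulin genes lay above that value on all arrays. For the actin control, the 3' probe set minus the 5' one, a measure of RNA integrity and labelling, ran from 0.69 on the untreated Sca1+ array to 0.91 on the dox Sca1- array. All 8 mammary epithelial markers examined, among them Epcam, Krt14 and Cdh1, lay above the floor on every array. Under dox, 4 of the 8 passed the 2-fold rule downwards in Sca1+ cells and 2 in Sca1- cells, and 0 passed it upwards. Of all genes analysed, 12.9% in Sca1+ and 11.3% in Sca1- cells passed it downwards, and 8.47% and 7.2% upwards. Krt5, a basal keratin gene, was 15.9-fold and 8.76-fold lower, and Krt8, a luminal keratin gene, 3.32-fold and 3.89-fold lower, on the same arrays that set Tubb3 and Tubb6 apart. Epcam was 2.06-fold lower in Sca1+ and 1.70-fold lower in Sca1- cells by its main probe set. Its second probe set had a mean dox difference of -0.01. Krt14 and Cdh1 differed by no more than 1.30-fold. The summed linear level of the list was 14664 and 15325 on the untreated Sca1+ and Sca1- arrays and 10179 and 11885 on the dox arrays, and its part in the tubulin values was not tested. Ptprc, Cd3e and Itgam, which mark leukocytes, lay at the floor on all 4 arrays. The expression of the Sca1 gene itself was not analysed here, so the sort was not checked on it.

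The beta isotypes parted under dox. Tubb3 was higher on both dox arrays, by 5.27-fold in Sca1+ and 16.3-fold in Sca1- cells, and Tubb6 was lower on both, by 49.0-fold and 5.87-fold. Tubb2b was a little under 2-fold higher in both fractions, and Tuba1a, Tuba4a, Tubb2a and Tubb5 differed by no more than 1.22-fold. In Sca1+ cells 1 of 7 genes was past 2-fold in the higher direction with dox, where the background was 8.47% of the genes analysed, and 1 of 7 in the lower direction, where it was 12.9%. In Sca1- cells the same counts of 1 and 1 of 7 stood beside 7.2% and 11.3%. The median difference of the 7 genes was 0.02 in Sca1+ cells and 0.23 in Sca1- cells, against 0.03 and 0.02 over all genes analysed. With so few genes these counts are a description of the members and not of the family against the rest.

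**Figure D1:**
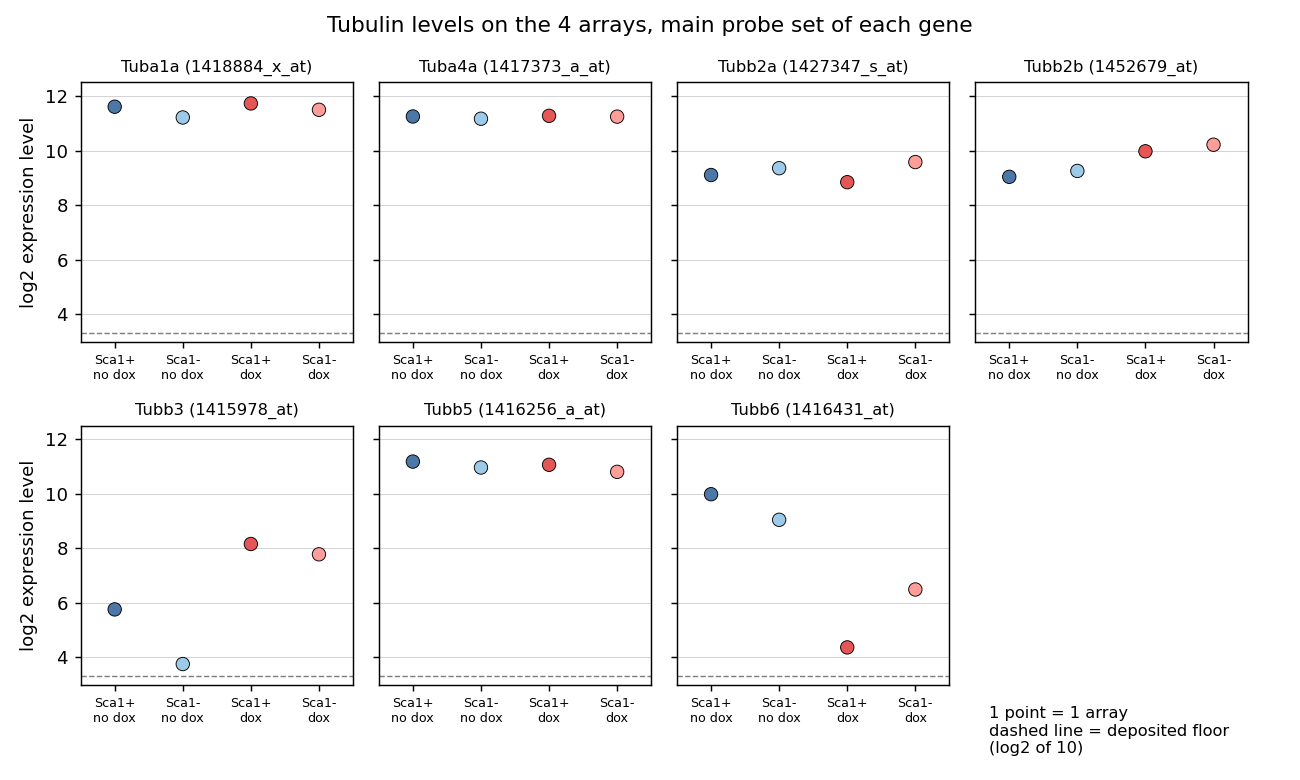
Log2 expression level (vertical axis) of the main probe set of 7 tubulin genes on the 4 arrays, with 1 point per array and the deposited floor as a dashed line. Tubb3 is higher and Tubb6 lower on both dox arrays, Tubb2b is slightly higher on both, and the points of Tuba1a, Tuba4a and Tubb5 are nearly level.

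Tubb3 was the isotype with the largest increase. Its single probe set, 1415978_at, read 5.76 in untreated Sca1+ cells, 3.76 in untreated Sca1- cells, 8.16 in dox Sca1+ cells and 7.78 in dox Sca1- cells. Both dox levels lay above both untreated levels, and the untreated Sca1- level was close to the floor. The log2 difference with dox was 2.40 in Sca1+ cells, exceeded by 158 of the 12264 genes analysed, and 4.02 in Sca1- cells, exceeded by 25. The gap between the fractions rests on the low untreated Sca1- value. With every value under 32 set to 32, the dox difference in Sca1- cells was 2.78 and no longer more than 2-fold larger than that in Sca1+ cells. In bulk samples such as these, more cells that express a gene and more RNA per cell cannot be told apart.

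The promoter sequence of Tubb3 is shown as that of the isotype with the largest increase, and that of Tubb5 as an isotype whose levels stayed close together. Both are the 250 bases before the annotated start in RefSeq (GRCm38.p6), written 5' to 3' on the strand of the gene, at chr8:123411303-123411552 on the plus strand for Tubb3 and chr17:35838302-35838551 on the minus strand for Tubb5. Capitals mark exact matches, on either strand, to the CCAAT box (CCAAT), the GC box (GGGCGG) and the TATA box (TATAAA).
Tubb3: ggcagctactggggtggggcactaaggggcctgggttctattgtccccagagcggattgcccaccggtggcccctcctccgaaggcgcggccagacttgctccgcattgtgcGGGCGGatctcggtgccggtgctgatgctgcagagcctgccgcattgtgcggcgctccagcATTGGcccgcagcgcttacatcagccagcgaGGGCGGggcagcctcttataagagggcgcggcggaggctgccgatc
Tubb5: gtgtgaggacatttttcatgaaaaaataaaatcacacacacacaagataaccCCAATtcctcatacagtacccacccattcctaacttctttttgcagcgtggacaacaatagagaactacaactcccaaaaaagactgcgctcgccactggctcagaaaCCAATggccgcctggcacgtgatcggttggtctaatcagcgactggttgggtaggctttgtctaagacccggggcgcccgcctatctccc
The Tubb3 sequence holds 1 CCAAT box, whose first base lies 77 bases before the start, and 2 GC boxes, at 138 and 46 bases. The Tubb5 sequence holds 2 CCAAT boxes, at 198 and 90 bases, and no exact GC box. Neither holds an exact TATA box. No matches overlapped each other. Among the 32851 promoters in the table, 33.8% hold a CCAAT box, 32.7% a GC box and 12.4% a TATA box in the same window. G and C make up 68.0% of the Tubb3 window and 49.2% of the Tubb5 window, against a median of 52.4% over all promoters. Promoter sequences were found for 7 of the 9 isotypes, not for Tubb2b and Tubb6. These matches describe letters only, and no binding was measured.

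Since Tubb3 is used as a neuronal marker, 12 other neuronal genes were examined. In untreated Sca1- cells all 12 lay at the floor, and in untreated Sca1+ cells 10 did. With dox, 6 lay above the floor in Sca1+ cells and 3 in Sca1- cells, and the summed linear level of the list was 27.9 and 0 on the untreated Sca1+ and Sca1- arrays and 115 and 70.2 on the dox arrays. On the dox arrays most of that sum came from Syp and Syt1, which encode synaptic vesicle proteins. Syp lay at the floor on both untreated arrays and at 5.26 and 5.04 with dox, and Syt1 lay at the floor and at 4.87 and 4.72. Each rests on 1 probe set, since the other Syp probe set and the 3 other Syt1 probe sets had a mean dox difference of 0. Gap43 was at 0.59 and 0.13, whereas Rbfox3 and Elavl3 had dox differences of -0.19 and -0.46 in Sca1+ cells and lay at the floor in Sca1- cells. The neurofilament genes Nefl, Nefm and Nefh, the synaptic gene Snap25, Elavl4 and Dcx lay at the floor on all 4 arrays. The stathmin gene Stmn2, typical of neurons, did not exceed 3.34. Of 6 fibroblast markers, 1 lay above the floor on each untreated array and 4 on each dox array, with Dcn, a matrix proteoglycan gene, at the floor in untreated cells and at 9.41 and 8.42 with dox, and the collagen genes Col1a1 and Col3a1 at the floor throughout. The second Dcn probe set had a mean dox difference of 0.29, against 5.59 for the main one. Pdgfra, the fibroblast marker above the floor on every array, had dox differences of -0.13 and -0.69. The summed linear level of these markers was 18.9 and 35.4 on the untreated Sca1+ and Sca1- arrays and 720 and 394 on the dox arrays. On the dox arrays most of it came from the main Dcn probe set. Col1a2, at 3.45 and 3.53, and Lum, at 3.62 and 4.14, were close to the floor there. The part of the neuronal and fibroblast genes in the Tubb3 difference was not tested.

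Tubb6 was the isotype with the largest decrease. Its main probe set, 1416431_at, read 9.98 in untreated Sca1+ cells, 9.05 in untreated Sca1- cells, 4.37 in dox Sca1+ cells and 6.49 in dox Sca1- cells. The dox levels lay below the untreated levels in both fractions, and the order of the fractions turned. Untreated Sca1+ cells had 1.92 times the level of untreated Sca1- cells, and with dox the Sca1- cells had 4.36 times the level of the Sca1+ cells. The log2 difference with dox was -5.62 in Sca1+ cells, where 1 of the genes analysed was lower still, and -2.55 in Sca1- cells, where 140 were. The dox difference in Sca1+ cells was thus 3.06 lower than that in Sca1- cells, the most negative such value among 12264 genes. Counting either sign, 2 genes had as large a value, Tubb6 included. The dox Sca1+ level lay near the floor, and with every value under 32 set to 32 the difference in Sca1+ cells was -4.98.

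The 2 probe sets of Tubb6 disagreed. The second, 1446353_at, read 3.32, 4.03, 3.32 and 3.62. It lay at the floor on both Sca1+ arrays, where it can show no decrease. In Sca1- cells its dox difference was -0.41. Averaging both probe sets gave Tubb6 dox differences of -2.81 in Sca1+ and -1.48 in Sca1- cells, which rest on the brighter one.

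Tubb2b was moderately higher with dox in both fractions. Probe set 1452679_at read 9.04 in untreated Sca1+ cells, 9.25 in untreated Sca1- cells, 9.97 in dox Sca1+ cells and 10.21 in dox Sca1- cells. Both dox levels lay above both untreated levels. The log2 differences were 0.94 and 0.96, which is 1.91-fold and 1.95-fold, and 23.5% and 19.7% of the genes analysed had differences at least as large in either direction. Tubb2b thus lay just short of the 2-fold rule, as the nearest isotype outside it. A further probe set, 1449682_s_at, is annotated to both Tubb2b and the pseudogene Tubb2a-ps2, and read 6.05, 6.51, 7.11 and 7.37. Its dox differences were 1.06 and 0.86.

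Tubb2a, whose gene neighbours Tubb2b with no protein-coding gene between them, did not share that pattern. Its main probe set, 1427347_s_at, read 9.10 and 9.35 in untreated Sca1+ and Sca1- cells and 8.84 and 9.58 in dox Sca1+ and Sca1- cells. The dox levels lay on either side of the untreated ones. The dox difference was -0.26 in Sca1+ and 0.23 in Sca1- cells. The dimmer probe set 1427838_at gave 0.20 and 0.31, so the probe sets disagreed in sign in Sca1+ cells.

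Tubb5 was nearly level. Its main probe set, 1416256_a_at, read 11.18, 10.96, 11.06 and 10.80. The dox differences were -0.12 and -0.16, and at least 76.8% of the genes analysed had differences as large in either fraction. The second probe set, 1455719_at, read 10.28, 9.76, 10.20 and 9.93 and gave -0.07 and 0.17, with the other sign in Sca1- cells.

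**Figure D2:**
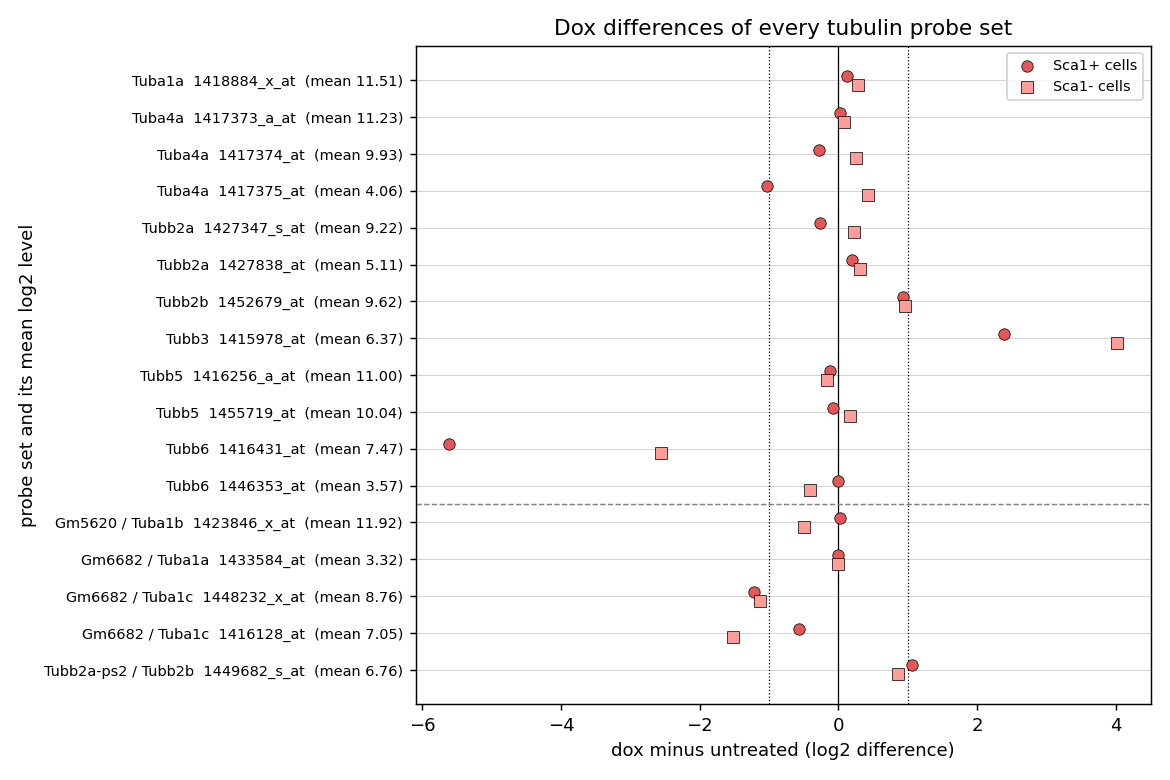
Dox minus untreated log2 differences (horizontal axis) in Sca1+ cells (circles) and Sca1- cells (squares) for the 12 single-symbol tubulin probe sets, above the dashed line, and the 5 that share a second symbol, below it, each with its mean log2 level. The bright Tubb6 probe set lies far to the left and Tubb3 far to the right, while the second Tubb6 probe set, of mean level 3.57, stays near 0.

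By their main probe sets, the alpha chains Tuba1a and Tuba4a differed by no more than 1.22-fold with dox. Tuba1a, the alpha isotype best known from the developing brain, read 11.61, 11.21, 11.73 and 11.49 (probe set 1418884_x_at). Its dox differences of 0.12 and 0.28 were small, and that in Sca1+ cells turned to -0.07 with the arrays centred on the median of all probe sets and to -0.16 after quantile normalization. The ending _x_at marks probes that can bind other transcripts, and the coding sequences of alpha isotypes are very alike, so this signal may not be of Tuba1a alone.

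Tuba4a, an alpha chain that is made without the carboxyl-terminal tyrosine of most others, was level by its brightest probe set. That probe set, 1417373_a_at, read 11.25, 11.17, 11.27 and 11.24, a range of 0.11. The second, 1417374_at, read 10.15, 9.71, 9.88 and 9.97. The dimmest, 1417375_at, read 4.40, 4.04, 3.36 and 4.46. The 3 probe sets disagreed: the dox difference in Sca1+ cells was 0.02, -0.27 and -1.04 from the brightest to the dimmest, and in Sca1- cells 0.08, 0.26 and 0.43. The largest of these rests on a level next to the floor.

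Tuba1b and Tuba1c lie beside Tuba1a in the genome, with no protein-coding gene between neighbours, and could be followed only by probe sets with a second symbol. Their values are given for the probe sets and are not assigned to either gene. Probe set 1423846_x_at, annotated to Tuba1b and Gm5620, read 11.99 and 12.10 on the untreated Sca1+ and Sca1- arrays and 12.01 and 11.60 on the dox arrays. Probe set 1448232_x_at, annotated to Tuba1c and Gm6682, read 9.62 and 9.07 on the untreated Sca1+ and Sca1- arrays and 8.41 and 7.94 on the dox arrays. Both of its dox levels lay below both untreated levels, by 2.32-fold in Sca1+ and 2.19-fold in Sca1- cells. Probe set 1416128_at, with the same symbols, read 7.44 and 7.69 untreated and 6.88 and 6.17 with dox, 1.48-fold and 2.87-fold lower. A probe set annotated to Tuba1a and Gm6682, 1433584_at, lay at the floor on all arrays. Counting the brightest shared probe set for Tuba1b and Tuba1c would put 2 of 9 genes past 2-fold in the lower direction under dox in each fraction.

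The Sca1+ to Sca1- differences share arrays with the dox differences, so they are the same 4 levels read the other way. In untreated cells, 1 of 7 isotypes was at least 2-fold higher in Sca1+ cells (background 3.07%) and 0 of 7 at least 2-fold lower (background 3.33%). That gene was Tubb3, at 4.01 times the Sca1- level, with 20 of the genes analysed having a larger log2 difference. With all values under 32 set to 32, the Tubb3 difference was 0.76 on the log2 scale and no isotype passed the rule. Under dox, 0 of 7 were at least 2-fold higher (background 2.52%) and 1 of 7 at least 2-fold lower (background 2.98%), which was Tubb6, with a log2 difference of -2.12 and 30 genes below it. Tubb3 was then at 0.38. Among main probe sets the next largest Sca1 difference under dox was that of Tubb2a, -0.74, although its second probe set gave 0.27. The dimmest Tuba4a probe set gave -1.10, against 0.03 for the main one.

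The fractions' dox differences were at least 2-fold apart for 2 of the 7 isotypes, Tubb3 and Tubb6, against 7.13% of the genes analysed. The value in Sca1+ minus that in Sca1- cells was -1.63 for Tubb3 and -3.06 for Tubb6. For the other isotypes it ran from -0.49 (Tubb2a) to 0.04 (Tubb5).

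**Figure D3:**
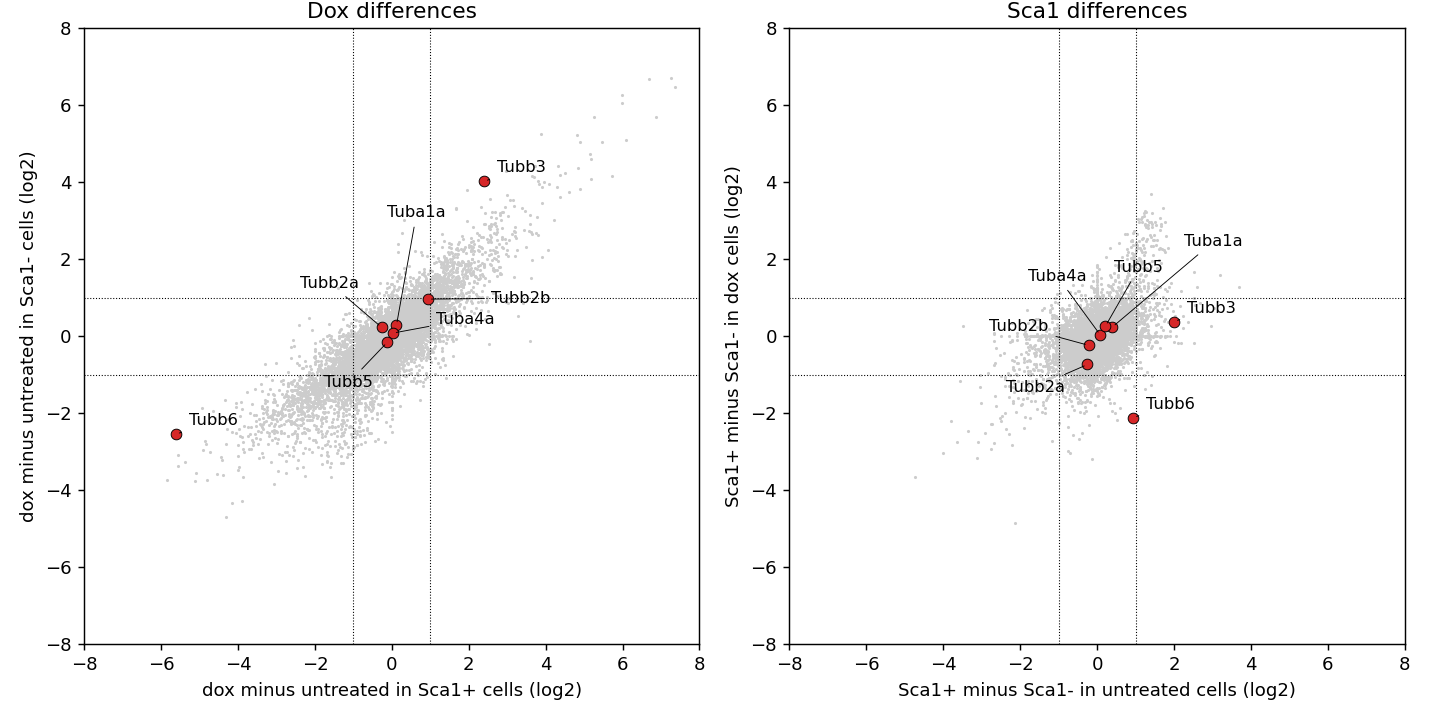
Log2 differences of 7 tubulin genes (red, labelled) over the 12264 genes analysed (grey). The left panel sets the dox difference in Sca1- cells against that in Sca1+ cells, and the right panel the Sca1 difference with dox against that without. Dotted lines mark 2-fold. Tubb6 at -5.62 and -2.55 lies above the diagonal of the left panel, Tubb3 lies at 2.40 and 4.02, and in the right panel Tubb6 is at 0.94 and -2.12.

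Patterns over the arrays most like those of Tubb3 and Tubb6, the 2 isotypes whose levels ranged over 2 or more log2 units, were looked for among 10260 other genes above the floor on all arrays. Likeness was the root mean square distance between the 4 log2 levels after each gene's mean was subtracted. With only 4 arrays, likeness of this kind is a weak description. Nearest to Tubb6 was Bnc1, which encodes the keratinocyte zinc-finger protein basonuclin, at a distance of 0.19. Bnc1 read 9.79 and 9.19 in untreated Sca1+ and Sca1- cells and 4.24 and 6.11 in dox Sca1+ and Sca1- cells. Reep6, at 0.47, and the cytidine deaminase gene Cda, at 0.49, followed. Nearest to Tubb3 were the anthrax toxin receptor gene Antxr1 at 0.31, Ltbp1, a latent TGF-beta binding protein, at 0.34, and the fibrillar collagen gene Col5a2 at 0.38.

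Of 11 other tubulin genes, 9 had a single-symbol probe set and 7 reached the pooled median on at least 1 array and were analysed. None of the 7 differed 2-fold with dox in either fraction, where the background per direction ran from 7.2% to 12.9%. The median differences were -0.04 in Sca1+ and -0.33 in Sca1- cells. Tubb1 and Tubb4a lay above the floor only on the untreated Sca1- array, and Tuba8 did not exceed 3.96. The -0.33 is the value of Tubb1, which fell from 3.65 to the floor. Tubb4b, a beta chain of dividing and ciliated cells, read 10.89 and 10.58 in untreated Sca1+ and Sca1- cells and 10.50 and 10.27 in dox Sca1+ and Sca1- cells. Its 5 other probe sets had mean dox differences from 0 to 0.44, against -0.34 for this main one. Tubg1, the gamma-tubulin that nucleates microtubules, read 8.56 and 8.06 untreated and 8.29 and 7.70 with dox. Tube1, an epsilon-tubulin of centrioles, was 2.19-fold higher in untreated Sca1+ than Sca1- cells and was the only one of the 7 past 2-fold in a Sca1 difference. The background for that direction in untreated cells was 3.07%.

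Genes that fold and assemble tubulin gave no 2-fold difference. Of 8 folding cofactor and autoregulation genes, 0 were 2-fold higher or lower with dox in either fraction, where the background per direction ran from 7.2% to 12.9%, and the medians were 0.23 and 0.42. Tbcc, a cofactor that acts on the assembled dimer complex, had the largest values of the list, 0.92 and 0.74, and Ttc5, which recognises nascent tubulin during autoregulation, was at 0.09 and 0.42. The second Tbcc probe set had a mean dox difference of 0.01, against 0.83 for the main one. For Ttc5 these values were 0 and 0.26. Of 15 chaperonin and prefoldin genes, which fold newly made tubulin and actin, 0 were 2-fold different with dox, beside the same background, with medians of 0.19 and 0.10. The gamma-tubulin ring complex and its anchors likewise had 0 of 11, with medians of -0.34 and -0.15.

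Among tubulin-modifying enzymes, 2 of the 17 analysed passed the 2-fold rule upwards under dox in both fractions and 0 passed it downwards, beside 5.29% and 8.56% of all genes analysed. These were Atat1, which acetylates alpha-tubulin inside the microtubule, and Hdac6, which removes that acetyl group. Atat1 read 4.42 and 5.29 in untreated Sca1+ and Sca1- cells and 6.53 and 6.92 with dox, 4.33-fold and 3.09-fold higher. Its other 3 probe sets had mean dox differences from 0.14 to 1.35. Hdac6 read 6.52 and 5.71 untreated and 7.70 and 7.20 with dox, 2.27-fold and 2.81-fold higher. The list had median dox differences of 0.32 and 0.45.

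Of 23 microtubule-associated and plus-end protein genes analysed, 3 passed the rule upwards under dox in both fractions and 1 downwards, beside 5.29% and 8.56% of all genes analysed. Map1a and Map1b, which encode large stabilising proteins best known from neurons, were higher. Map1b read 6.35 and 6.30 in untreated Sca1+ and Sca1- cells and 8.40 and 8.20 with dox, 4.14-fold and 3.73-fold higher. Map1a was 3.12-fold and 4.42-fold higher, and its second probe set had a mean dox difference of 1.60. The other Map1b probe sets had mean dox differences of 0.04 and 1.28. Camsap3, which binds microtubule minus ends in epithelial cells, was 2.63-fold and 2.39-fold higher. Map6, which protects microtubules from cold, read 6.20 and 5.79 untreated and lay at the floor on both dox arrays, a decrease of at least 7.33-fold in Sca1+ cells and at least 5.51-fold in Sca1- cells. Its second probe set gave a mean dox difference of -0.31.

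Among 10 microtubule-destabilising and severing genes analysed, 1 passed the rule downwards under dox in both fractions and 0 upwards, beside 8.56% and 5.29% of all genes analysed. This was Fignl1, of the family of severing ATPases and also known for its part in homologous recombination, at 2.79-fold and 6.58-fold lower, while its second probe set had a mean dox difference of 0. Stmn1, which sequesters tubulin dimers, was at 0.09 and 0.12. The depolymerising kinesin gene Kif2c and Kif18a, which limits chromosome movement in mitosis, were 3.27-fold and 2.89-fold higher in Sca1+ than Sca1- cells without dox and 10.0-fold and 5.18-fold higher with dox. These 2 of 10 genes passed the rule both times, and 0 of 10 were lower both times, beside 1.08% and 0.881% of all genes analysed. Both are given by their main probe sets. The other Kif18a probe set had a mean dox difference of 0, against -1.20 for the main one. Those of Kif2c ran from -1.15 to -0.21, against -1.18. The Sca1 differences of these other probe sets were not examined.

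Genes of G2 and mitosis, when the spindle is built from tubulin, differed between the same arrays. Under dox, all 20 that were analysed passed the rule downwards in Sca1- cells and 9 of 20 did in Sca1+ cells, beside 11.3% and 12.9% of all genes analysed, with medians of -2.71 and -0.94. The kinase genes Aurkb and Cdk1, the kinesin gene Kif11 and the proliferation marker Mki67 were the furthest down by mean dox difference, with Mki67 at -2.56 in Sca1+ and -3.12 in Sca1- cells. In Sca1+ against Sca1- cells, 18 of 20 were at least 2-fold higher without dox and 20 of 20 with dox, beside 3.07% and 2.52%. Hmmr, a spindle protein, was 3.09-fold higher without and 8.40-fold higher with dox. Bub1b, a spindle checkpoint kinase, read 8.06, 6.81, 7.26 and 4.01. The lowest array of that gene was dox Sca1-, whereas the lowest array of Tubb6 was dox Sca1+ and that of Tubb3 untreated Sca1-. By their main probe sets, Tubb5 and Tubb4b also had their lowest levels on the dox Sca1- array, within ranges of 0.38 for Tubb5 and 0.61 for Tubb4b. So did Tubg1 at 7.70, Tube1 at 4.97, Tubd1 at 4.60 and Tuba8 at 3.49, the last near the floor. The shared probe sets of Tuba1b, at 11.60, and Tuba1c, at 7.94 and 6.17, were lowest there as well. Tuba1a and Tuba4a were instead lowest on the untreated Sca1- array, Tubb2b on untreated Sca1+ and Tubb2a on dox Sca1+. The second Tubb5 probe set was lowest on the untreated Sca1- array, at 9.76 against 9.93 on the dox Sca1- array. None of the other Tubb4b probe sets had a mean dox difference below 0, against -0.34 for the main one. The part of cell-cycle genes in the tubulin values was not tested.

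**Figure D4:**
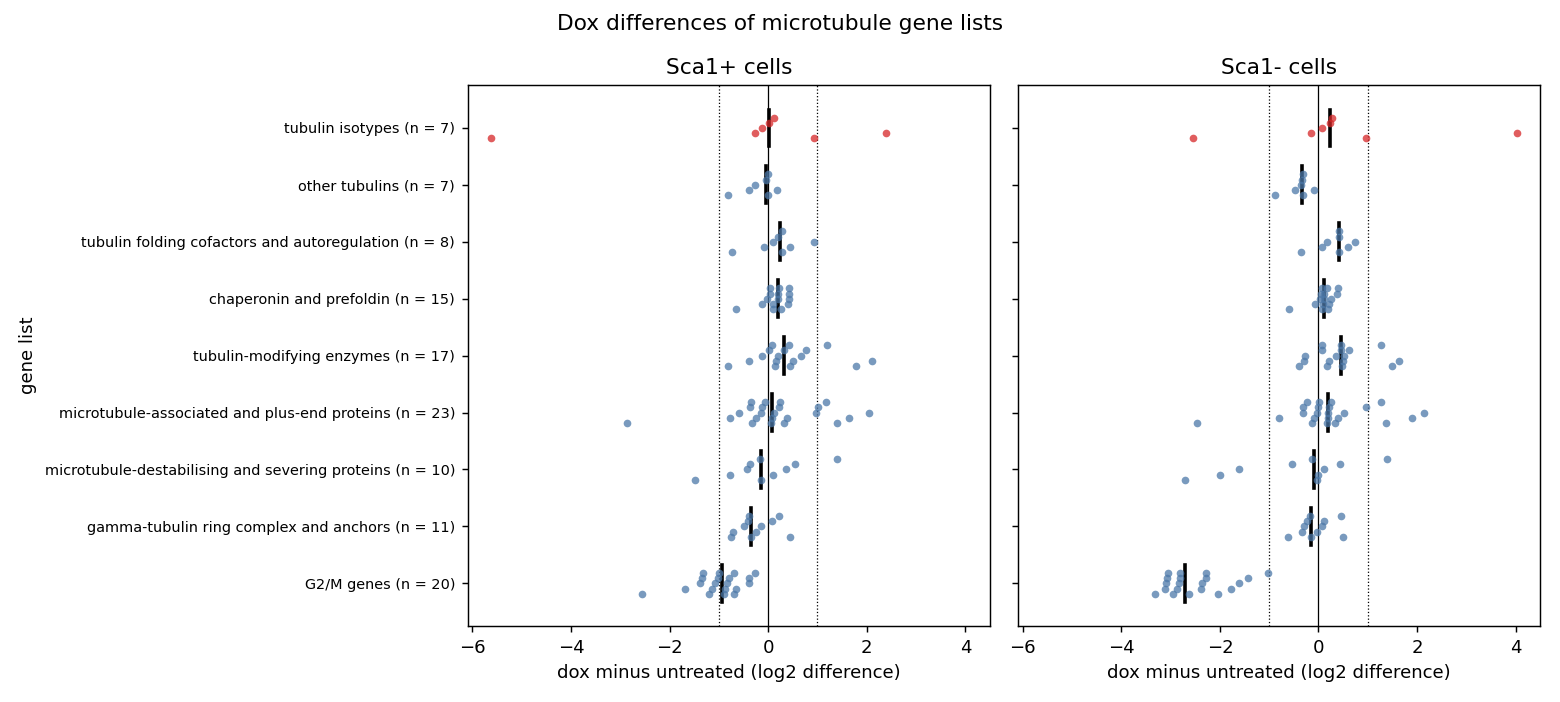
Dox minus untreated log2 differences (horizontal axis) of the analysed genes of 9 lists in Sca1+ cells (left) and Sca1- cells (right), with 1 point per gene, a bar at each list's median and dotted lines at 2-fold. The tubulin isotypes (red) spread from -5.62 to 2.40 and from -2.55 to 4.02 around medians near 0, while all G2/M genes lie below 0.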

How the data were processed

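RNA from 4 groups of sorted cells, 1 array each, was labelled with biotin from 50 to 500 ng of total RNA with an Affymetrix 3' kit, per the labels' protocols. The deposited table holds the authors' log2 expression level of each probe set. Of the software, scaling and summarization behind it, the sources used here say nothing. Scanner files were not used here. Sequencing depth does not apply, and the number of arrays limits the precision.

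Genes were named from the platform annotation, where 34958 probe sets have 1 symbol, 932 several and 9211 none. A probe set with several symbols was assigned to no gene. Log2 differences were taken between arrays as deposited, with pandas 2.3.3 and numpy 2.4.6. The arithmetic of the 2-fold rule was checked on simulated data without noise. That check cannot show how often genes pass the rule between unreplicated arrays. Background shares cover the 12264 genes analysed. Named were all isotypes, and of each other list the up to 4 genes with the largest mean dox difference and up to 2 with the largest mean Sca1 difference among those 2-fold in the same direction both times. Others are given as context and were chosen after their values were seen. Alternatives covered scaling, the choice of probe set, the floor and the filter on low genes. Members and lists were chosen with earlier results of these data known.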

Additional observations from a re-analysis of the deposited data

Results flagged for a closer look

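Tubb6 had Sca1 differences of opposite direction without and with dox. The log2 difference of Sca1+ minus Sca1- cells was 0.94 in untreated cells and -2.12 in dox cells, by its main probe set. The second, dimmer probe set, which lay at the floor on both Sca1+ arrays, gave -0.71 and -0.30, which share a direction. Tubb2a had dox differences of opposite direction in the fractions, -0.26 in Sca1+ cells and 0.23 in Sca1- cells, both well under 2-fold. Its second probe set gave 0.20 and 0.31, which share a direction. Neither difference was tested, since each group has 1 array.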

How the results depend on the processing

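The isotype values, 5 for each of 7 genes, were recomputed under 8 alternatives, the last of them, with shared probe sets, chosen after seeing the data. Of 280 recomputed values, 277 kept their side of the 2-fold rule and none past it changed sign. Part of these values could not move. Keeping only genes above the floor, or adding shared probe sets, left the values of all 7 genes as they were by construction. Changing the choice of probe set could not move the 3 genes with 1 single-symbol probe set. The 277 is therefore not a measure of how stable the values are. Centring each array on its overall median, a value close to the floor, put Tubb6 at 1.16 for the Sca1 difference in untreated cells, so that 2 isotypes were higher in Sca1+ cells there. It moved the median of all genes by -0.19 for dox in Sca1+ cells and by 0.22 for Sca1 in untreated cells. The share of higher among 2-fold genes went from 39.7% to 27.3% and from 48.0% to 70.0% in these comparisons. The floor at 32 left 0 isotypes higher in untreated Sca1+ cells, with Tubb3 at 0.76, and the difference between the fractions' dox differences of Tubb3 at -0.38. Adding the probe sets shared with a second symbol gave 2 isotypes lower with dox in Sca1+ cells and 2 in Sca1- cells. Averaging probe sets gave Tubb6 dox differences of -2.81 in Sca1+ and -1.48 in Sca1- cells, still past 2-fold, and Sca1 differences of 0.12 without and -1.21 with dox. Signs of differences under 2-fold turned in several settings and are not read as directions. An additive fit of dox and Sca1 over the 4 arrays, which would leave 1 residual degree of freedom, was not run.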

Other observations

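A few further microtubule genes, chosen after their values were seen, were past 2-fold in 1 fraction only. The polyglutamylase gene Ttll5 had dox differences of 1.78 in Sca1+ and 0.61 in Sca1- cells (log2). Ttl, the ligase that puts tyrosine back on alpha-tubulin, was at 0.78 and 1.27. The stathmin genes Stmn3 and Stmn4, of a family that binds tubulin dimers, lay at the floor on both untreated arrays. Stmn3 read 4.73 in dox Sca1+ cells and stayed at the floor in dox Sca1- cells, whereas Stmn4 read 3.69 and 4.71. These are main probe sets. The other Stmn3 probe set had a mean dox difference of 0.09, against 0.70 for the main one. The other Ttll5 probe sets ran from -0.09 to 0.94, against 1.20, and those of Ttl from 0 to 0.98, against 1.02. No difference between fractions was tested.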
